A study of Mus musculus with 8 samples.

Results

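The genes described here are 9 genes of the insulin-like growth factor (IGF) system: the binding protein genes Igfbp2 to Igfbp7, the ligand genes Igf1 and Igf2, and the receptor gene Igf2r. They were chosen by symbol, matched to the gene identifiers of the count files, and make up 9 of 55450 identifiers. All 9 were found in the files and followed through all 8 libraries. The cells were PyMT-1099, a mouse breast cancer line, and polyadenylated RNA was sequenced from 4 groups of 2 libraries: Agps knockout cells after a 10 day course of TGF-β, 2 ng/ml, untreated Agps knockout cells, parental cells given the same TGF-β course, and untreated parental cells. All groups grew in the same serum-containing medium, and serum itself carries IGFs. The 4 knockout libraries bear 1 shared line tag, whether that line is a clone is not given in the sources used here, and the labels do not state whether paired libraries stem from separate cultures. The p-values below thus reflect no more than library-to-library spread, possibly technical.

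IGF1 and IGF2 are secreted growth factors that signal through the tyrosine kinase receptor IGF1R and through forms of the insulin receptor, and from there through IRS adaptors to PI3K and AKT. Most circulating and pericellular IGF is held by binding proteins, of which IGFBP1 to IGFBP6 bind IGFs tightly, while IGFBP7 binds them weakly and is better known as a secreted protein of matrix and vessels. IGF2R carries no kinase: it takes IGF2 to the lysosome and, as the cation-independent mannose 6-phosphate receptor, sorts lysosomal enzymes and can bind latent TGF-β.

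Library totals ran from 17007268 to 21311831 counts, which sets 3 counts, the limit that a count of 0 allows, at 0.141 to 0.176 CPM (read counts scaled to a common library size). Such limits cover counting error only. Agps, the targeted gene, averaged 39.8 ± 5.87 CPM in knockout and 265.5 ± 0.98 CPM in parental cells with TGF-β (SD, n = 2 each). Without TGF-β it averaged 31.1 ± 2.52 CPM in knockout cells and 343.5 ± 19.4 CPM in parental cells. Of 8 epithelial markers 4 passed the count filter. These were Krt18, Krt8, Krt19 and Cdh1, with 335089, 137427, 129732 and 42534 counts over all 8 libraries. Cldn3 and Esrp1 held 1 count each over all libraries, and Epcam and Cldn7 had 0 counts in every library. The epithelial list summed to 3234 to 3448 CPM in knockout cells with TGF-β, 4181 to 4506 CPM in untreated knockout cells, 3125 to 3327 CPM in parental cells with TGF-β and 5801 to 6396 CPM in untreated parental cells.

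Of the 9 genes, Igfbp7 and Igf2r passed the count filter. The other 7 stood below detection: they did not pass the count filter (edgeR's filterByExpr with a minimum count of 10) and held 1 to 20 counts each over all 8 libraries, with no more than 7 in any library. For comparison, 45.8% of 21951 protein-coding genes did not pass the filter, and 9324 of them held 20 counts or fewer in all. Because Igfbp7 and Igf2r moved with TGF-β in opposite directions, the 250 bases upstream of their RefSeq starts (GRCm38.p6, minus strand for both) are shown, with capitals marking the SMAD box CAGAC and the GC box GGGCGG on either strand. The first lies at chr5:77408046-77408295 and the second at chr17:12769707-12769956.
Igfbp7: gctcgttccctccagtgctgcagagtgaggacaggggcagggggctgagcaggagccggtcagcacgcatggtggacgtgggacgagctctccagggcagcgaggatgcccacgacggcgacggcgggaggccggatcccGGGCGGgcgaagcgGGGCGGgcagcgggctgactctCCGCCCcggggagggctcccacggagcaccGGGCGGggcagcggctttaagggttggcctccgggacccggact
Igf2r: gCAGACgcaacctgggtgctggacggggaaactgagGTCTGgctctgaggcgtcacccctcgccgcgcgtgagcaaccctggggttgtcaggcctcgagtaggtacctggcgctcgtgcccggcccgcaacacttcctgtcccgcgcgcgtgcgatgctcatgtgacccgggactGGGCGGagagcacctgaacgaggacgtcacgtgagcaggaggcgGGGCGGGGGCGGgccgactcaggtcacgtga

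Both windows were rich in CpG, and of the marked motifs only the SMAD box was absent from 1 window. The Igfbp7 window held 26 CpG pairs, 4 GC boxes and 0 SMAD boxes, and the Igf2r window held 27 CpG pairs, 3 GC boxes and 2 SMAD boxes. Of 32851 RefSeq windows of the same length, 42.2% held a SMAD box and 32.7% a GC box, and the median CpG number was 6. The E-box CACCTG, not marked, had 1 copy in the Igf2r window and 0 in the Igfbp7 window, against 17.2% of all windows holding it. The AP-1 site TGACTCA was in neither. A part of these motifs in the TGF-β changes was not tested. A CpG-rich window was not particular to the measured genes, since the windows of Igfbp3 and Igfbp4, both below detection, held 32 and 22 CpG pairs.

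Igf1, the ligand best known as the mediator of growth hormone, had 0 counts in both libraries of each knockout group. In parental cells it had 3 and 2 counts with TGF-β and 0 in both untreated libraries. Igf2, the imprinted fetal ligand, had a single count, in an untreated parental library. A share of 62.8% of the exonic length of Igf2 is shared with Gm49394 on the same strand, and reads there can be counted for either gene or neither, but Gm49394 also held only 4 and 1 counts in the TGF-β libraries of the knockout and 0 elsewhere. H19, the noncoding RNA next to Igf2, had 2 counts, both in 1 parental library with TGF-β. Ligand transcripts were thus not detectable at this depth in most libraries, which for 0 counts over both libraries of a group allows up to 0.0710 CPM in untreated knockout and 0.0832 CPM in untreated parental cells.

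Among the tight binders, Igfbp4, a mostly inhibitory binding protein, had the most counts of the genes below detection. In knockout cells its libraries held 5 and 7 counts with TGF-β and 1 and 0 untreated. In parental cells it held 2 and 1 counts with TGF-β and 3 and 1 untreated. The ratio of 12 to 1 counts in knockout cells came to 13.4 after scaling for depth, with an exact 95% counting interval of 1.98 to 573.2. With the count filter removed, edgeR gave this change an adjusted p of 0.0230. The contrast of TGF-β responses, knockout minus parental, had an adjusted p of 0.469 in that fit. Adjusted p-values of that fit are not on the scale of the main fit. For Igfbp7 with TGF-β in knockout cells, edgeR gave 1.93e-43 without the filter and 3.62e-07 with it. Igfbp4 was the only gene of the 7 for which a ratio was computed, and a change is not shown at these counts. At 12 counts in a pair of libraries the level remained at most 0.554 CPM by the exact Poisson interval.

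Igfbp5, a binding protein abundant in mammary involution, had 0 and 1 counts in the treated knockout libraries and 0 in both untreated ones, against 1 and 0 in parental cells with TGF-β and 5 and 2 in untreated parental cells. Igfbp2, an integrin-binding family member, had 0 in both knockout libraries with TGF-β, 3 and 1 in untreated knockout cells, 0 and 1 in parental cells with TGF-β and 1 and 0 in untreated parental cells. Igfbp3, the main carrier of IGFs in serum, had a single count, in parental cells with TGF-β. Igfbp6, which prefers IGF2, held 8 counts in all and 2 at most in a library. Without the count filter, edgeR gave Igfbp4 with TGF-β in knockout cells the only adjusted p under 0.05 among these 7 genes in the 5 comparisons.

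**Figure D1:**
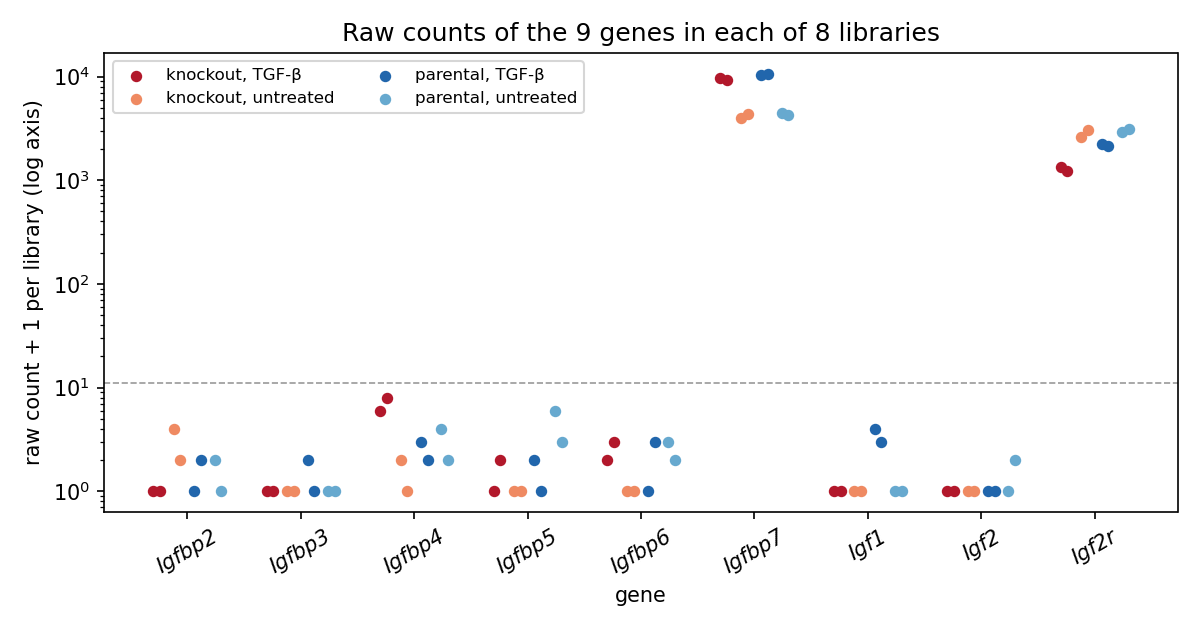
Raw counts plus 1 of the 9 genes (log axis) in each of the 8 libraries, coloured by group, with a dashed line at a raw count of 10. Igfbp7 and Igf2r hold 1229 counts or more in every library, and the other 7 genes hold 7 counts or fewer.

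Igfbp7 made up nearly all IGFBP transcripts. Scaled to exonic length, it held 99.896 to 99.989% of the summed CPM per kilobase of the 6 binding protein genes in each library. The gene (ENSMUSG00000036256, GRCm38 chromosome 5, 77349240 to 77408041, minus strand) has 1209 exonic bases, of which 7.03% lie opposite Polr2b. On that per-length scale it ranked 40 of 14641 tested genes in knockout cells with TGF-β and 152 in untreated knockout cells, and 36 in parental cells with TGF-β and 127 in untreated parental cells.

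TGF-β raised Igfbp7 in both lines. Its level was 489.6 and 511.9 CPM in knockout cells with TGF-β, against 191.1 and 202.3 CPM in untreated knockout cells. Parental cells held 554.3 and 632.8 CPM with TGF-β, against 235.6 and 250.2 CPM untreated. In each line both treated libraries stood above both untreated ones by far more than the gap between libraries of a group. The log2 fold change was 1.35 in knockout cells (standard error 0.09, 95% interval 1.15 to 1.55, adjusted p = 3.62e-07) and 1.29 in parental cells (standard error 0.09, 95% interval 1.09 to 1.49, adjusted p = 5.64e-07), in edgeR's quasi-likelihood test. A single edgeR fit over all genes and libraries gave these and all later p-values, adjusted over 14641 genes; a gene is called changed where its adjusted p is below 0.05. The difference of the TGF-β changes, knockout minus parental, was 0.06 on the log2 scale with a 95% interval of -0.22 to 0.34 (adjusted p = 0.901).

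Igf2r, the gene of the receptor that sorts lysosomal enzymes, fell with TGF-β in both lines. It stood at 67.4 and 68.1 CPM in knockout cells with TGF-β, against 125.8 and 141.8 CPM in untreated knockout cells. In parental cells it stood at 117.4 and 128.0 CPM with TGF-β, against 153.5 and 183.0 CPM untreated. The knockout libraries with TGF-β were the lowest of all. The fall was -0.98 on the log2 scale in knockout cells (standard error 0.11, 95% interval -1.21 to -0.75, adjusted p = 1.69e-05) and -0.45 in parental cells (standard error 0.10, 95% interval -0.68 to -0.23, adjusted p = 0.00441). Without replicate 1 of the parental cells with TGF-β, the parental value was -0.39 with an adjusted p of 0.0570; over the 14 alternative settings its adjusted p ran from 8.20e-05 to 0.0570.

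Of the 9 genes, then, only 2 were tested, and of these 1 rose and 1 fell with TGF-β in each line. Among all tested genes 41.4% were called in knockout cells (20.9% higher, 20.6% lower) and 42.5% in parental cells (21.3% higher, 21.2% lower), so being called was common in these comparisons. These changes are per RNA of the whole culture, in which fewer cells of a kind and less RNA per cell cannot be told apart. Some genes listed as markers of other cell types moved in the same comparisons, and which cells made their RNA was not tested. Of 7 fibroblast markers 3 passed the filter. The fibroblast list summed to 188.8 to 189.5 CPM in knockout cells with TGF-β and 0.966 to 1.16 CPM in untreated knockout cells. In parental cells it summed to 206.9 to 227.0 CPM with TGF-β and 1.58 to 1.70 CPM untreated. The genes of that list that passed were Col1a1, Pdgfrb and Pdgfra, with 8366, 6482 and 161 counts over all 8 libraries, while Thy1, Dcn, Lum and Fap held 0, 1, 2 and 1. The endothelial list summed to 6.71 to 8.24 CPM in knockout cells with TGF-β and 0.510 to 0.821 CPM in untreated knockout cells, and to 76.5 CPM in both parental libraries with TGF-β and 1.29 to 1.58 CPM in untreated parental cells, with 2 of 5 genes passing. Cdh5 and Pecam1 held 2982 and 97 counts over all libraries, and Kdr, Tek and Emcn held 10, 3 and 0. Immune markers summed to 17.1 to 18.3 CPM in knockout cells with TGF-β and 32.5 to 32.9 CPM in untreated knockout cells, and to 28.0 to 30.4 CPM in parental cells with TGF-β and 32.3 to 32.6 CPM in untreated parental cells. Csf1r and Cd68 held 3452 and 794 counts over all libraries, Ptprc held 11, and Adgre1 and Cd3e were at 0. Adipocyte markers stayed at 1.86 CPM or less in every library, with Plin1 at 0. The part of these marker genes in the values of Igfbp7 and Igf2r was not tested.

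**Figure D2:**
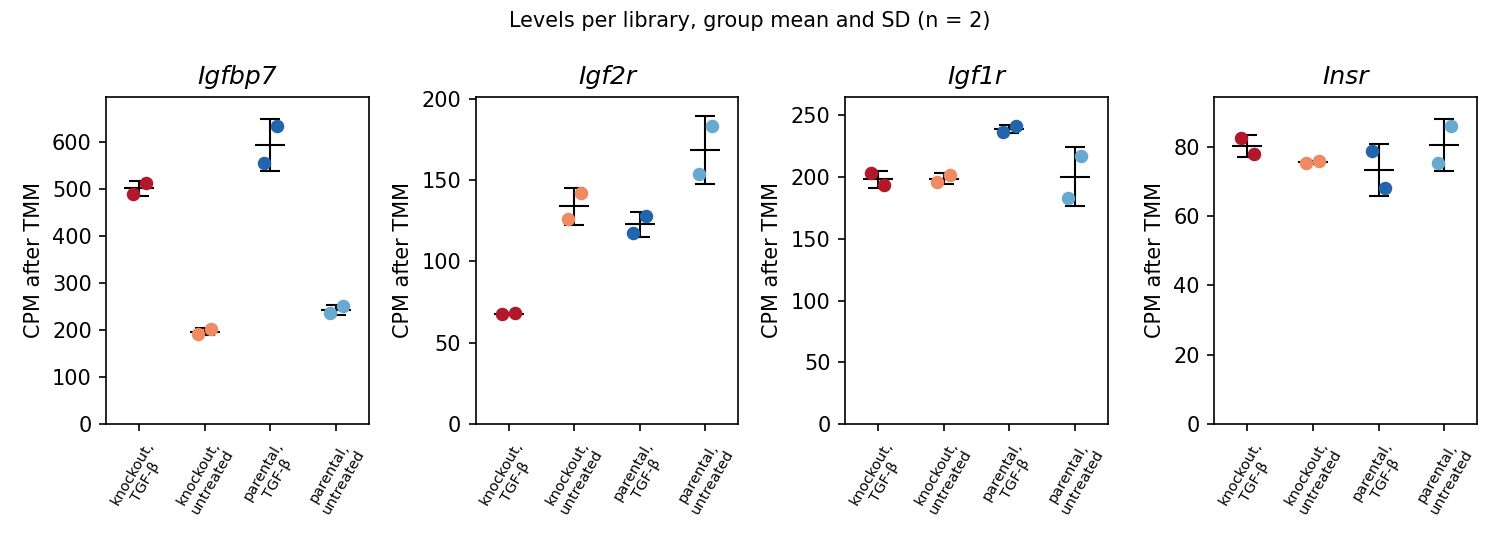
CPM after TMM scaling of Igfbp7, Igf2r, Igf1r and Insr in each library (points), with group mean and SD (n = 2) in black, knockout groups left of parental groups. Igfbp7 is at 489.6 CPM or above in treated libraries of both lines, and Igf2r is lowest, at 67.4 and 68.1 CPM, in knockout cells with TGF-β.

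The lines differed in Igf2r under TGF-β. With TGF-β, Igf2r was lower in knockout than in parental cells by a log2 fold change of -0.86 (standard error 0.11, 95% interval -1.09 to -0.62, adjusted p = 2.79e-04). Untreated, the same difference was -0.33 (standard error 0.10, 95% interval -0.56 to -0.10) and missed the threshold at an adjusted p of 0.0593. The difference of the TGF-β changes was -0.53 on the log2 scale (standard error 0.15, 95% interval -0.85 to -0.20, adjusted p = 0.107). That test was not passed, so a deeper fall in knockout cells is not shown, and its adjusted p ran from 0.0248 to 0.399 over 13 alternatives, 3 of which passed. For 53 tested genes within 5 Mb of Igf2r, the median log2 fold change between knockout and parental cells with TGF-β was 0.05. Of these genes 5 were higher and 2 lower, next to 6.82% higher and 11.1% lower among all tested genes. The cause of the line difference was not tested.

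Airn, the antisense noncoding RNA that silences the paternal Igf2r allele in mouse, shares no exonic base with Igf2r. It averaged 1.88 ± 0.160 CPM in knockout cells with TGF-β and 3.61 ± 1.07 CPM in untreated knockout cells, and 2.80 ± 0.668 CPM in parental cells with TGF-β and 4.26 ± 0.436 CPM in untreated parental cells (SD, n = 2 each). It is named after its values were seen, and because the strand setting of counting is not given in the sources used here, reads of Airn and unspliced Igf2r cannot be told apart.

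For Igfbp7 a line difference was called at the margin in untreated cells and not with TGF-β. Untreated, the log2 fold change between knockout and parental cells was -0.30 (standard error 0.09, 95% interval -0.50 to -0.10, adjusted p = 0.0475), and with TGF-β it was -0.25 (standard error 0.09, 95% interval -0.44 to -0.05, adjusted p = 0.0858). The untreated call held under 3 of 14 alternative settings, with adjusted p from 0.0116 to 0.190 and no call in any of the 8 fits that left out 1 library. Among 35 tested genes within 5 Mb of Igfbp7 the median log2 fold change between the untreated lines was 0.08. Of the 2 genes tested among the 9, 0 were higher in knockout cells and 1 was lower in each state. With TGF-β this was Igf2r, where 17.9% of all tested genes were called (6.82% higher, 11.1% lower). Untreated it was Igfbp7, where 13.7% were called (4.72% higher, 8.94% lower). For the difference of the TGF-β changes, edgeR called 0 of these 2 and 2.4% of all tested genes (1.25% higher, 1.15% lower). At an unadjusted edgeR p under 0.05 the number was 1 of 2, Igf2r, and DESeq2 called 0.

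**Figure D3:**
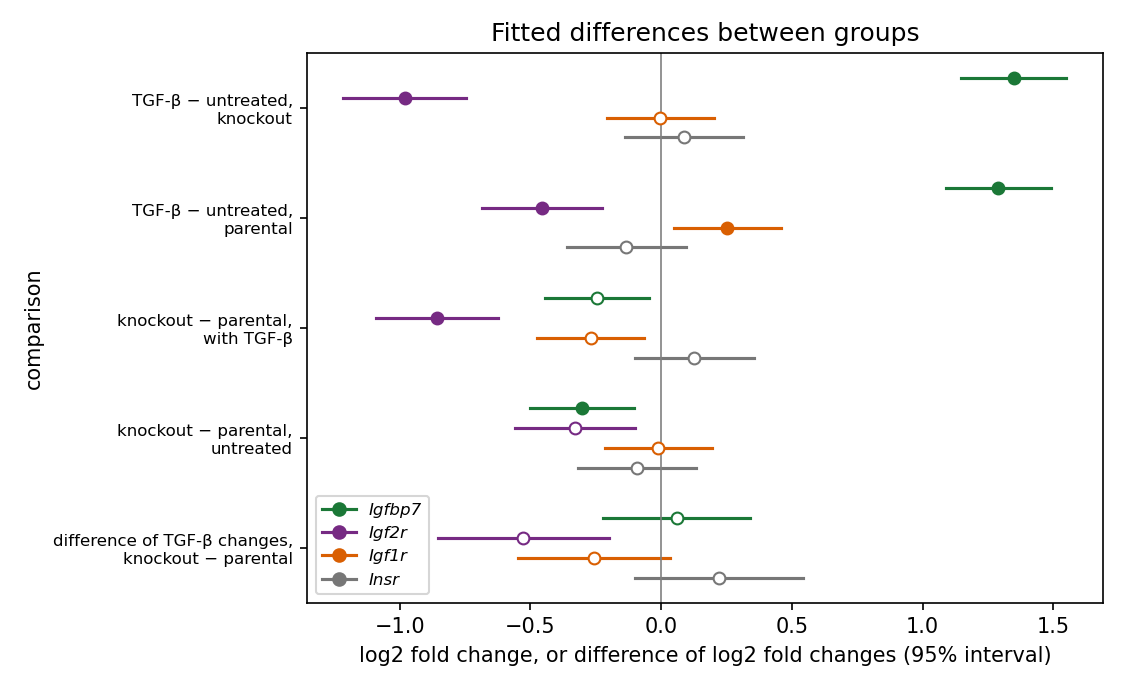
Log2 fold changes, or differences of them, from the edgeR fit with 95% intervals for Igfbp7, Igf2r, Igf1r and Insr in the 5 comparisons, which share libraries. Filled points have an adjusted p under 0.05; Igfbp7 lies at 1.35 and 1.29 and Igf2r at -0.98 and -0.45 for TGF-β in knockout and parental cells.

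The balance of Igfbp7 to Igf2r shifted with treatment. Per kilobase of exon, Igfbp7 stood at 55.9 and 57.9 times the level of Igf2r in knockout cells with TGF-β and at 11.7 and 11.0 times in untreated knockout cells. It stood at 36.3 and 38.1 times in parental cells with TGF-β and at 11.8 and 10.5 times in untreated parental cells. Over the 8 libraries, the genes whose log2 CPM followed Igfbp7 most closely in a pool of 9325 genes (average log2 CPM 3 or higher) were Rtn4 and Fkbp7, each with a Pearson r of 0.995, and those nearest to Igf2r were Fhl1 (r = 0.997) and Zfp623 (r = 0.989). The 8 points are 4 groups of 2 and share treatment and line, so these values describe likeness only.

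The rest of the pathway was read from 66 other genes in 9 lists, of which 46 passed the filter. The signalling receptors were measured in all groups. Igf1r stood at 203.2 and 193.3 CPM in knockout cells with TGF-β, 195.9 and 201.8 CPM in untreated knockout cells, 236.6 and 241.2 CPM in parental cells with TGF-β and 183.5 and 217.5 CPM in untreated parental cells. It was called higher with TGF-β in parental cells at a log2 fold change of 0.25 (adjusted p = 0.0473). That call held under 4 of 14 alternatives (adjusted p from 0.0135 to 0.368). The change of Igf1r in knockout cells was 0.00 with a 95% interval of -0.21 to 0.20. The difference of these changes, knockout minus parental, was -0.26 (edgeR adjusted p = 0.428). It was called under 0 of 13 alternatives, so a response that differs between the lines is not shown. Per kilobase, Igf1r stood above Igf2r in knockout cells with TGF-β, at 11.8 ± 0.415 against 7.28 ± 0.0514 CPM per kilobase, and below it in untreated knockout cells, at 11.8 ± 0.251 against 14.4 ± 1.21. The order was the same in parental cells. There the values were 14.2 ± 0.197 against 13.2 ± 0.806 CPM per kilobase under TGF-β and 11.9 ± 1.43 against 18.1 ± 2.24 untreated (SD, n = 2 each). Without length scaling, Igf1r stood above Igf2r in every group. Untreated, it averaged 198.9 against 133.8 CPM in knockout cells and 200.5 against 168.2 CPM in parental cells. The order per kilobase thus rests on the annotated exonic lengths. Insr, the insulin receptor gene, did not pass the test in any of the 5 comparisons, its log2 fold changes with TGF-β being 0.09 in knockout cells (95% interval -0.14 to 0.31) and -0.13 in parental cells (95% interval -0.36 to 0.09). Insrr and the carriers Igfbp1 and Igfbpl1 had 0 counts in every library, and Igfals, the subunit of the serum IGF complex, had no more than 2 in any.

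Several tested genes of other proteins with an IGFBP-type domain rose with TGF-β. Of 12 listed, 8 were tested: 5 rose and 1 fell with TGF-β in knockout cells, with a median log2 fold change of 1.90, and 6 rose and 1 fell in parental cells, with a median of 1.87. Among all tested genes 20.9% rose and 20.6% fell in knockout cells and 21.3% rose and 21.2% fell in parental cells, with medians of 0.00 and 0.01. Ccn5, counted among the risers and in both list medians, passed the filter only through its treated libraries. Its call gives no support to a change of the list, and the list counts and medians are not free of it. Htra1, a secreted protease, averaged 14.9 ± 0.821 CPM in knockout cells with TGF-β and 1.35 ± 0.339 CPM in untreated knockout cells, against 13.1 ± 1.85 and 1.72 ± 0.695 CPM in parental cells with TGF-β and untreated (SD, n = 2 each). Its relative Htra3 rose by 2.11 on the log2 scale in knockout and 2.98 in parental cells, and the matricellular gene Ccn4 rose by 2.81 and 2.40. Ccn5 had a sum of 663 counts in treated and 5 in untreated knockout cells, with 1025 in treated and 3 in untreated parental cells. Crim1, which encodes a membrane protein that binds BMPs, rose in parental cells at a log2 fold change of 0.58 and stood at -0.21 in knockout cells, where it was not called. The difference of these changes was -0.80 and was called (adjusted p = 0.00533).

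In the list of IGFBP proteases and their inhibitors, most genes did not pass the count filter. The protease Htra1 was counted in the IGFBP-domain list above instead. Of 7 listed genes of proteases and their stanniocalcin inhibitors, only Adam9 and Pappa2 were tested, and Pappa2 passed the filter only through its treated libraries, so its call gives no support to a change of the list. Adam9 rose by 0.62 in knockout and 0.40 in parental cells on the log2 scale. The call of Pappa2 in knockout cells held under 11 of 14 alternatives. Pappa2, which cleaves IGFBP3 and IGFBP5, had a sum of 25 counts in treated and 5 in untreated knockout cells, with 17 in treated and 1 in untreated parental cells.

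The growth hormone receptor gene Ghr rose with TGF-β in both lines. It averaged 158.5 ± 8.40 CPM in knockout cells with TGF-β and 29.8 ± 8.76 CPM in untreated knockout cells, and 93.7 ± 2.95 CPM in parental cells with TGF-β and 12.5 ± 0.616 CPM in untreated parental cells (SD, n = 2 each). The log2 fold change with TGF-β was 2.41 in knockout cells (adjusted p = 2.74e-07) and 2.91 in parental cells (adjusted p = 1.17e-07), and Ghr was higher in knockout than in parental cells, by 0.76 with TGF-β (adjusted p = 0.00480) and by 1.26 untreated (adjusted p = 6.00e-04). Of the transcription factors downstream of it, Stat5b fell by 1.02 in knockout and by 0.31 in parental cells on the log2 scale. Socs2, a feedback inhibitor of the receptor, rose by 0.71 in knockout cells, and its parental value of 0.45 was not called. In all, 2 of 4 genes of this axis rose and 2 fell in knockout cells, and 1 rose and 1 fell in parental cells, next to 41.4% and 42.5% called among all genes.

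Igf2bp2, which encodes an RNA-binding protein first found on IGF2 messages, rose by 0.82 in knockout and 0.47 in parental cells, and it was the only riser of 3 tested in that list, Igf2bp1 having fallen by 0.23 in parental cells. Of 4 genes of mannose 6-phosphate sorting, 2 rose in each line, Nagpa by 0.88 in knockout and 1.12 in parental cells and M6pr, the cation-dependent receptor gene, by 0.30 and 0.28. In parental cells 1 fell, Gnptab, by 0.25. The shares over all tested genes were 20.9% higher and 20.6% lower in knockout cells, and 21.3% higher and 21.2% lower in parental cells. Lists of 3 and 4 tested genes are too short to be read against these shares.

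The adaptor and PI3K lists held called genes in both lines. Of 5 tested adaptor and receptor-proximal genes, 3 fell and 0 rose in each line, with Irs2 at -0.89 in knockout and -0.76 in parental cells and Ptpn1, a phosphatase gene of the insulin receptor, at -0.25 and -0.29. Of 18 PI3K, AKT and FOXO genes, all tested, 9 fell and 2 rose in knockout cells (median -0.28), and 5 fell and 4 rose in parental cells (median -0.04). Among all genes 20.6% fell and 20.9% rose in knockout cells, and 21.2% fell and 21.3% rose in parental cells, and the parental shares of the PI3K list are near these. For the difference of the TGF-β changes, 0 of the 18 genes of the PI3K list were called, next to 2.4% of all tested genes. A fall of this list particular to knockout cells is thus not shown. Pik3r1, the main regulatory subunit of PI3K, fell by 1.22 in knockout and by 0.92 in parental cells, and Akt1 rose by 0.49 and 0.36. The knockout call of Ptpn1 held under 3 of 14 alternatives, and the parental calls of Stat5b, Igf2bp1 and Gnptab under 8, 6 and 7. Those of Ptpn1, Akt1 and M6pr in parental cells held under 11, and those of Adam9 in parental cells and of Ghr between the lines with TGF-β under 12.

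Over the 9 lists together, 14 of 46 genes rose and 15 fell in knockout cells with TGF-β, and 17 rose and 12 fell in parental cells, next to the 41.4% and 42.5% called among all genes. Risers in both lines include Ccn5 and Pappa2, which passed the filter only through their treated libraries. Their calls give no support to a change of the lists. Between the lines, 4 were higher and 7 lower in knockout cells with TGF-β, where 17.9% of all genes were called. By size the first of these were Htra3 (1.39), Ccn1 (-1.14), Ghr (0.76) and Ccn5 (-0.72). Untreated, 5 were higher and 4 lower, where 13.7% of all genes were called, and by size the first were Htra3 (2.26), Ghr (1.26), Stat5a (1.15) and Ccn1 (-0.94). For the difference of the TGF-β changes 2 of 46 were called, against 2.4% of all genes. These were Crim1 and Stat5b, and the call of Stat5b held under 7 of 13 alternatives.

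**Figure D4:**
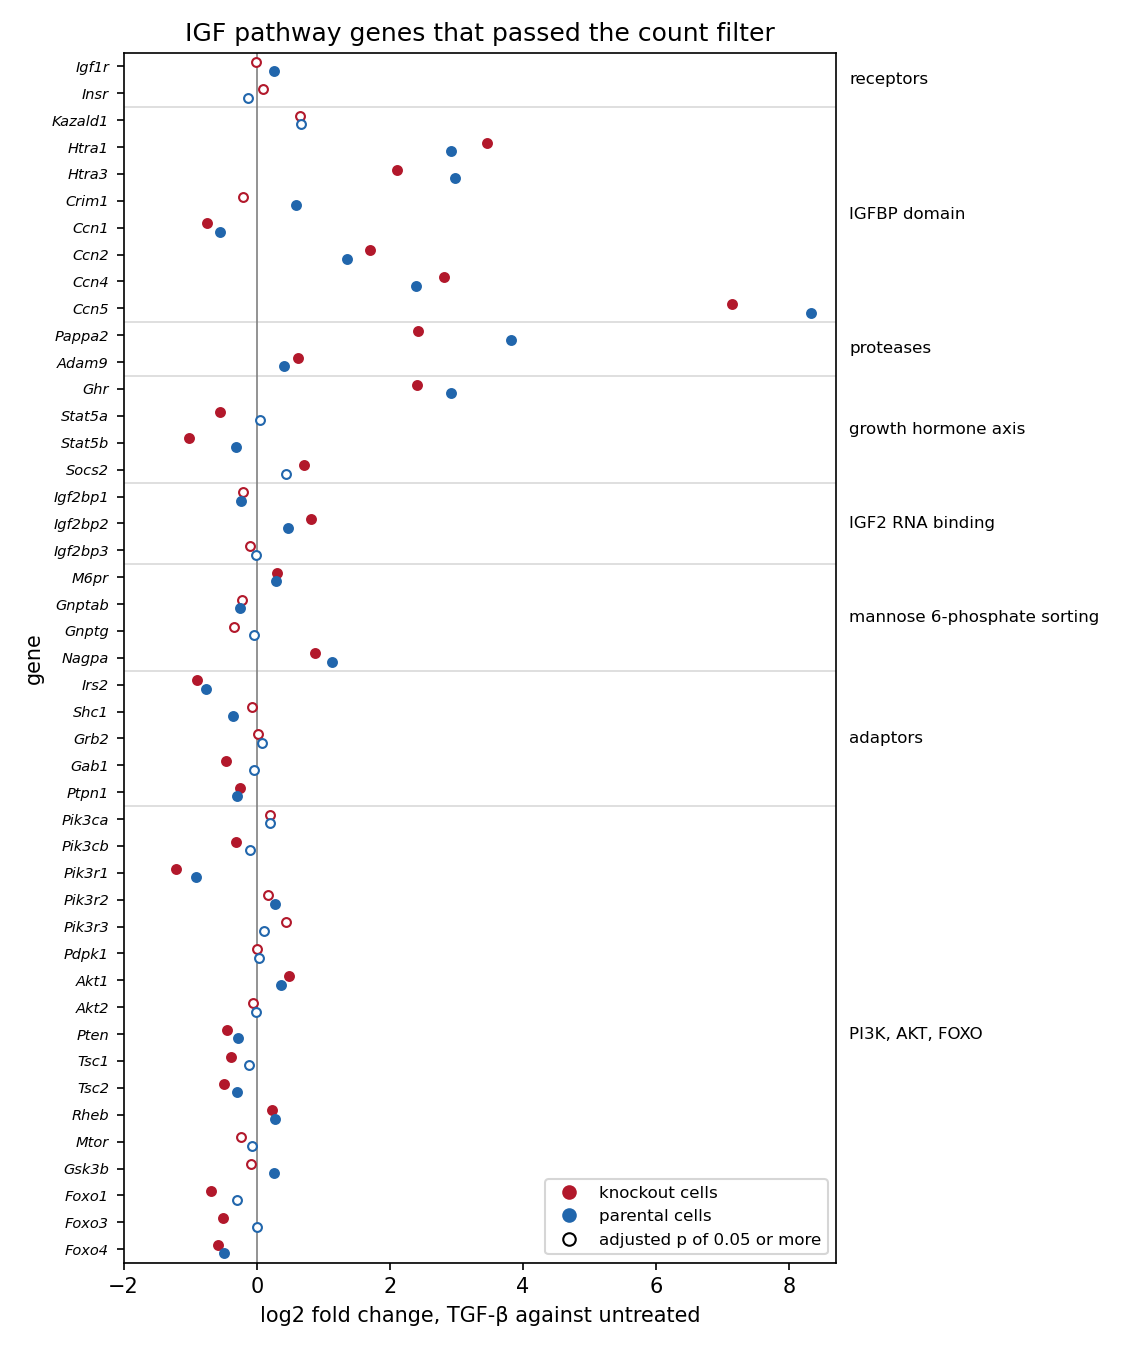
Log2 fold changes with TGF-β for tested pathway genes, by list, with knockout cells above parental cells in each row and open points for an adjusted p of 0.05 or more. Htra1, Htra3, Ccn4 and Ghr lie beyond 2 in both lines, while Igf1r and Insr lie between -0.13 and 0.25; the values of Ccn5 and Pappa2 rest on 5 counts or fewer in untreated cells.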

How the data were processed

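Polyadenylated RNA of 8 libraries was made into libraries by KAPA mRNA HyperPrep, per the labels' protocols. The authors deposited whole-number counts per gene for each library. STAR 2.7.1a, featureCounts 1.6.2, DESeq2 1.26.0 and the build GRCm38 (mm10) are named in the submitters' processing notes; the sources used here give no annotation release, strand setting or filters. A table normalized by the authors was left out. Gene symbols, positions and exonic lengths came from GENCODE M21, which held all 55450 identifiers.

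The deposited counts were tested with edgeR 4.0.16 in R 4.3.3: genes passing filterByExpr (minimum count 10), TMM scaling, a mean per group over all 8 libraries, the quasi-likelihood test with 4 residual degrees of freedom, and Benjamini-Hochberg adjustment over 14641 genes with a threshold of 0.05. CPM were computed after TMM scaling. The fits were tested on simulated data. Alternatives were RLE and upper quartile scaling, no filter, DESeq2 1.42.0, only the groups compared, the replicate number as a block, and each library left out.

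The 9 genes and the gene lists were chosen with earlier results of these data known. Genes named were the 9, Agps, each receptor and carrier, up to 4 called genes per list and comparison with the lowest adjusted p, and the 2 genes most like each measured gene. Antisense, overlapping and marker genes are named beside the results they touch. Between libraries of a group, counts differed by more than counting noise, so none was counted as a repeat. A gene of the pathway lists is counted in the list totals but not reported here by name or shown.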

Additional observations from a re-analysis of the deposited data

Results flagged for a closer look

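The change with TGF-β differed between the lines, by a test of the difference itself (edgeR, adjusted over all tested genes), for 3 genes among those named. For Crim1 the difference, knockout minus parental, was -0.80 on the log2 scale. For Stat5b it was -0.71. For Agps, the targeted gene, it was 0.73, from a log2 fold change of 0.36 in knockout cells and -0.37 in parental cells, and this call held under 8 of 13 alternatives.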

How the results depend on the processing

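No called value changed sign. Values not called in any setting did so for Igf1r with TGF-β in knockout cells (-0.04 to 0.03) and between the untreated lines (-0.13 to 0.11), Insr between the untreated lines (-0.19 to 0.00), and the Igfbp7 difference of the TGF-β changes (-0.03 to 0.16). Of the 9 genes, Igf2r with TGF-β in knockout cells, Igf2r between the lines with TGF-β, and Igfbp7 with TGF-β in both lines kept their calls under all 14 alternatives. Between the lines with TGF-β, 2 of the 9 genes were called with only the groups compared or with the replicate block, and 18 pathway genes with only the groups compared. Between the untreated lines, RLE, upper quartile scaling and only the groups compared each called 0 of the 9, no filter and the replicate block 2, and only the groups compared called 1111 genes in place of 2000. For the difference of the TGF-β changes, no filter called 855 genes and the replicate block 679 in place of 352, and each called 1 of the 9, Igf2r.

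Leaving out 1 library at a time, TGF-β called 4701 to 6439 genes in knockout and 4466 to 6526 in parental cells, 2 to 2 and 1 to 2 of the 9 genes, and 23 to 30 and 14 to 29 pathway genes. Between the lines with TGF-β it called 1188 to 2922 genes, 1 to 1 of the 9 and 6 to 15 pathway genes; the number was 1588 and 1345 without knockout replicate 1 and 2 with TGF-β, and 1188 and 1317 without parental replicate 1 and 2 with TGF-β, against 2618. Untreated it called 1476 to 1813 genes, 0 to 1 of the 9 and 7 to 9 pathway genes, and for the difference 120 to 421, 0 to 1 and 1 to 4. Replicate numbers did not pair libraries by the labels, and deviations of same-numbered libraries correlated at 0.00381 to 0.552. With 2 libraries a group, and a limit of 0.141 CPM or more for 0 counts, small changes and the 7 genes below detection cannot be resolved.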
